A study of Homo sapiens with 9 samples.

Results

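CDH1, CDH2, EPCAM, VIM, SNAI1, SNAI2, ZEB1, ZEB2, TWIST1 and TWIST2, 10 genes that mark or drive the epithelial-mesenchymal transition (EMT), were followed in RNA-Seq of H1975 cells, a human lung adenocarcinoma line. They were matched by symbol to the identifiers of 61544 counted genes, and 7 of the 10 had enough reads to be tested. H1975 cells of every group, Vector included, were first treated for 24 h with si78, which silences endogenous GRP78 (gene HSPA5) by targeting the 3′ untranslated end of the mRNA. They then received the empty plasmid pcDNA3 (Vector), FLAG-tagged wild-type GRP78 that lacks the si78 target (WT), or the same protein with alanine in place of 3 lysines of its nuclear localization signal (NLS Mut) for 48 h. Each group had 3 libraries. Cells without si78 were not analysed here, so the baseline given below is that of si78-treated cells with Vector. Nothing in the labels says that the 3 libraries of a group came from separate cultures, so p-values measure only the spread between these libraries.

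In EMT, epithelial cells loosen their junctions and take on a motile, mesenchymal form. E-cadherin (CDH1) holds neighbouring epithelial cells together, and EPCAM is another epithelial adhesion protein, whereas N-cadherin (CDH2) and the intermediate filament vimentin (VIM) are typical of mesenchymal cells. The zinc-finger repressors SNAI1, SNAI2, ZEB1 and ZEB2 bind E-box DNA, chiefly CACCTG or its reverse complement, and repress CDH1 and other epithelial genes. TWIST1 and TWIST2 are basic helix-loop-helix proteins that bind E-boxes (CANNTG) as dimers with the E proteins TCF3, TCF4 and TCF12. ID2, an inhibitor without a DNA-binding domain, pairs with E proteins and keeps them off DNA. EMT is often incomplete in carcinoma lines, which can express epithelial and mesenchymal markers together.

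E-boxes were searched in RefSeq promoters (GRCh38.p14, 250 bases before to 50 after each start site), in which 5 of the 10 members matched: CDH2, VIM, ZEB1, ZEB2 and TWIST2. The letters CACCTG, or CAGGTG where the site lies on the opposite strand, were found in the promoters of ZEB1 alone among these 5, at 4 places within 2 of its 7 start sites. Of all 35116 promoters in the table, 20.6% held this site and 68.7% held any CANNTG, which includes it. The 4 ZEB1 stretches are shown because they carry the site that the SNAI and ZEB proteins recognize. Each is on the plus strand, capitals mark the E-box, and the position of its first base is counted from the start site, whose own base is +1.
Start site 1, position -57, chr10:31318348-31318377: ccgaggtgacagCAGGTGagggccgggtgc
Start site 3, position -242, chr10:31318966-31318991: ccccaccaCACCTGaggaaaactttt
Start site 3, position -85, chr10:31319119-31319148: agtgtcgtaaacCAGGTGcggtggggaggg
Start site 3, position +34, chr10:31319237-31319265: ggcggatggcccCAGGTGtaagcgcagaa
Such a match describes the sequence and is not evidence of binding. ZEB2 and CDH2 each had 1 CANNTG that was not of this type, and no CANNTG was found in the windows of VIM and TWIST2.

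The libraries held 17671055 to 27476298 reads counted on genes, and replicates of a group differed by more than sampling noise. HSPA5 was at 359 to 391 CPM (reads of a gene relative to all counted reads of the library, scaled by TMM) in the Vector libraries, 5031 to 6145 in WT and 4765 to 5156 in NLS Mut, as the labels say. Epithelial keratins were abundant in every library (KRT7 from 1197 CPM, KRT8 from 1448). The lung lineage factor NKX2-1 was at 21.4 to 31.6 CPM, whereas the surfactant gene SFTPB was at 1.06 CPM or less. Of the markers of other cell types, 5 for fibroblasts summed to 6.90 to 11.8 CPM, most of it PDGFRB, with DCN at 0 and LUM at 2 reads or fewer. Those for leukocytes summed to 7.06 to 11.8 CPM, most of it CD14 (4.75 to 9.54 CPM). CD79A was at 0.511 to 2.96 CPM, and CD3E and CD68 were at 0. The endothelial markers summed to 8.82 CPM or less. A marker can also stand at 0 where its reads lie on overlapping genes, which was not checked here. In bulk RNA, fewer cells expressing a gene and less RNA per cell cannot be told apart.

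At baseline, H1975 cells expressed epithelial and mesenchymal markers side by side, but not all of either kind. Per exonic length, in TPM (each gene's share of the library after division by its exonic length), VIM was at 352 ± 50.1 (SD, n = 3) in the Vector libraries, EPCAM at 312 ± 9.57 and CDH1 at 186 ± 16.1. These levels lay above those of 98.4%, 98.1% and 96.2% of the tested genes. VIM was above EPCAM within each Vector library, but their ranges overlapped, at 313 to 409 and 306 to 323 TPM. With the longest transcript in place of all exons they did not, at 457 to 600 and 338 to 356 TPM. CDH1, at 177 to 205 TPM, lay below both of them. Among the repressors the order was SNAI1 (87.6 TPM), SNAI2 (42.3), ZEB1 (11.8) and ZEB2 (1.20), and no neighbouring pair in that order overlapped in any group. ZEB1 stood near the middle of the tested genes, above 48.1% of them, and ZEB2 above 11.5%. The order of the 7 members was the same by the longest transcript.

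VIM is an uncertain member, because of how the reads were counted. On chromosome 10 (17228259 to 17237593, plus strand, GRCh38) its exons share 641 bases with the antisense gene VIM-AS1 and 619 bases with a further antisense gene, ENSG00000234961. A count made without regard to strand leaves out reads that lie on overlapping genes, and it held 109362 VIM reads in all 9 libraries. The deposited counts of the plus and minus strand, added together, held 408249. On that sum VIM was at 993 to 1009 TPM in the Vector libraries. The antisense genes share these reads: ENSG00000234961 had 0 reads in the count made without regard to strand and 123598 on the sum, and VIM-AS1 had 707 and 125447. Reads of VIM and of its antisense genes cannot be told apart in such data. The sum of both strands was 173% of the count used for CDH2, 124% for CDH1 and 108% for ZEB1. An alternative fit on the sum of both strands was chosen after the data were seen, and its fold changes are given beside those of VIM and CDH1.

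**Figure D1:**
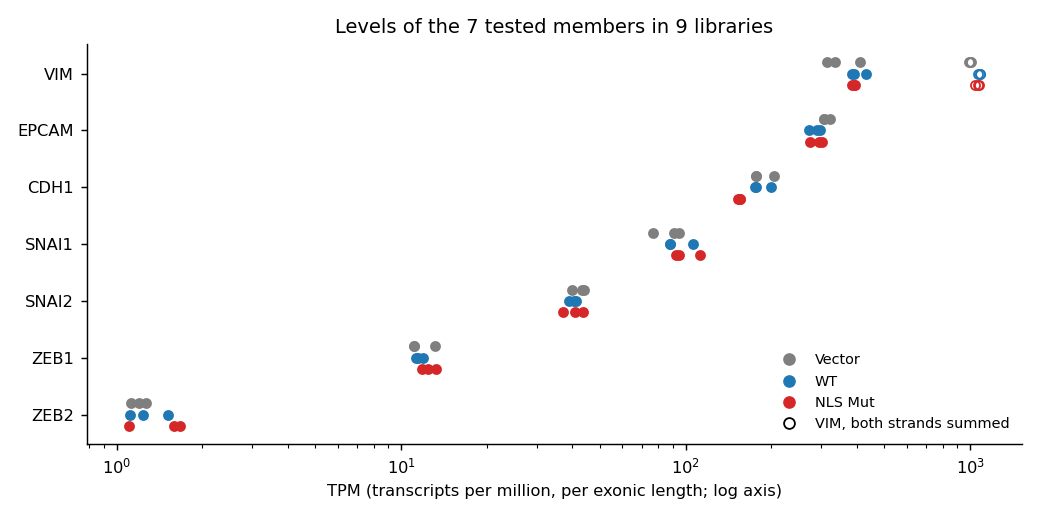
TPM per exonic length (log axis) of the 7 tested members, 1 point per library, coloured by group, with open points for VIM on the sum of both strands. The filled points of VIM, EPCAM and CDH1 lie between 153 and 431 TPM, SNAI1 and SNAI2 between them and ZEB1, and ZEB2 at 1.11 to 1.67 TPM.

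3 members were at or near 0. CDH2 had 37 reads in all 9 libraries together (64 on the sum of both strands), or 0.178 CPM on unscaled libraries (exact 95% interval 0.125 to 0.246, for counting error alone). Of these, 19 were in Vector replicate 1 (0.893 CPM, 0.538 to 1.39), and the other 8 libraries held 0 to 5 reads each. The difference between the groups in that count therefore rested on 1 library. TWIST1 and TWIST2 had 0 reads in every library, counted with or without regard to strand, which allows up to 0.0145 CPM over all 9 libraries and up to 0.109 to 0.170 CPM in a single library (3 reads, the limit for a count of 0). Reads that a TWIST gene shared with another gene on its own strand would be missing from all 3 counts. TCF4, one of the E proteins, had 0 to 4 reads per library. Its relatives TCF3 and TCF12 were expressed, at 187 ± 21.0 and 87.6 ± 5.02 CPM in the Vector libraries (SD, n = 3).

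WT against NLS Mut, 2 forms of GRP78 that differ in the nuclear localization signal, was the main comparison, and WT and NLS Mut were each set against Vector. These 3 comparisons share libraries, so they are not independent of one another. Calls were made where edgeR's quasi-likelihood test over 18653 genes gave an adjusted p under 0.05. CDH1 was the member called in WT against NLS Mut and in NLS Mut against Vector, and no member was called in WT against Vector. Thus 1 of 7 tested members was called in WT against NLS Mut, where 0.504% of all tested genes were, 0 in WT against Vector (background 0.558%), and 1 in NLS Mut against Vector (0.793%). By direction, the background was 0.3% higher and 0.204% lower in WT against NLS Mut, 0.214% and 0.343% in WT against Vector, and 0.295% and 0.499% in NLS Mut against Vector. DESeq2 made the same number of calls (1, 0 and 1, with backgrounds of 1.66%, 1.4% and 2.21%). At an unadjusted p under 0.05, 1, 1 and 2 members passed, and 11.6%, 11.7% and 12.2% of all genes. The median absolute log2 fold change of the 7 members was 0.07, 0.10 and 0.16 in these comparisons, against 0.14 for all tested genes in each. All tested genes include ones with few reads, and no background matched for expression was taken. These medians therefore do not show whether the members moved less or more than genes of like level.

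CDH1 (chromosome 16, 68737225 to 68835548, plus strand) was lower with NLS Mut than in both other groups. It was at 332, 293 and 296 CPM in Vector replicates 1 to 3, at 339, 299 and 296 in WT and at 253, 261 and 258 in NLS Mut. The 3 NLS Mut libraries lay below all 6 others, whereas the Vector and WT libraries overlapped. The group means were 307 ± 22.1, 311 ± 24.1 and 258 ± 4.34 CPM (SD, n = 3). CDH1 was 20.8% higher in WT than in NLS Mut, a log2 fold change of 0.27 ± 0.06 (standard error; 95% interval 0.15 to 0.40, adjusted p = 0.036, edgeR). Between NLS Mut and Vector it was -0.25 ± 0.06 (-0.38 to -0.13, adjusted p = 0.044, edgeR). WT and Vector differed by 0.02 (-0.10 to 0.15, adjusted p = 0.94, edgeR). An exact permutation test on CDH1 alone (two-sided) gave p = 0.1 for both called comparisons, the smallest that 3 against 3 libraries allow, and p = 0.5 for WT against Vector. Groups that do not overlap were not rare: 17.7% of all tested genes met this in WT against NLS Mut and 18.1% in NLS Mut against Vector.

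The call of CDH1 held with 10 other settings, 9 of them on all 9 libraries and 1 on only the groups compared, but was lost when some single libraries were left out. Between WT and NLS Mut the log2 fold change was 0.25 to 0.29 over those 10 settings (adjusted p from 0.0020 to 0.039) and 0.29 on the sum of both strands (adjusted p = 0.021, edgeR). It stayed at 0.21 to 0.32 without any 1 library, but was no longer called without WT replicate 1 (0.21, adjusted p = 0.20), WT replicate 3 (0.32, adjusted p = 0.058), or NLS Mut replicate 1, 2 or 3 (0.27, 0.29 and 0.28, with adjusted p = 0.20, 0.15 and 0.14, edgeR). Against Vector it was -0.28 to -0.23 over the same 10 settings, called in each, and -0.26 on the sum of both strands (adjusted p = 0.041, edgeR). WT and Vector differed by 0.04 on that sum (adjusted p = 0.87, edgeR). Without Vector replicate 2 or 3 (both -0.29, adjusted p = 0.078 and 0.069), WT replicate 3 (-0.26, adjusted p = 0.057) or NLS Mut replicate 1, 2 or 3 (-0.24, -0.27 and -0.26, adjusted p = 0.19, 0.17 and 0.18, edgeR) the call was lost. The GC content of CDH1 lies between the quartiles of the tested genes (43.3% and 56.7%).

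**Figure D2:**
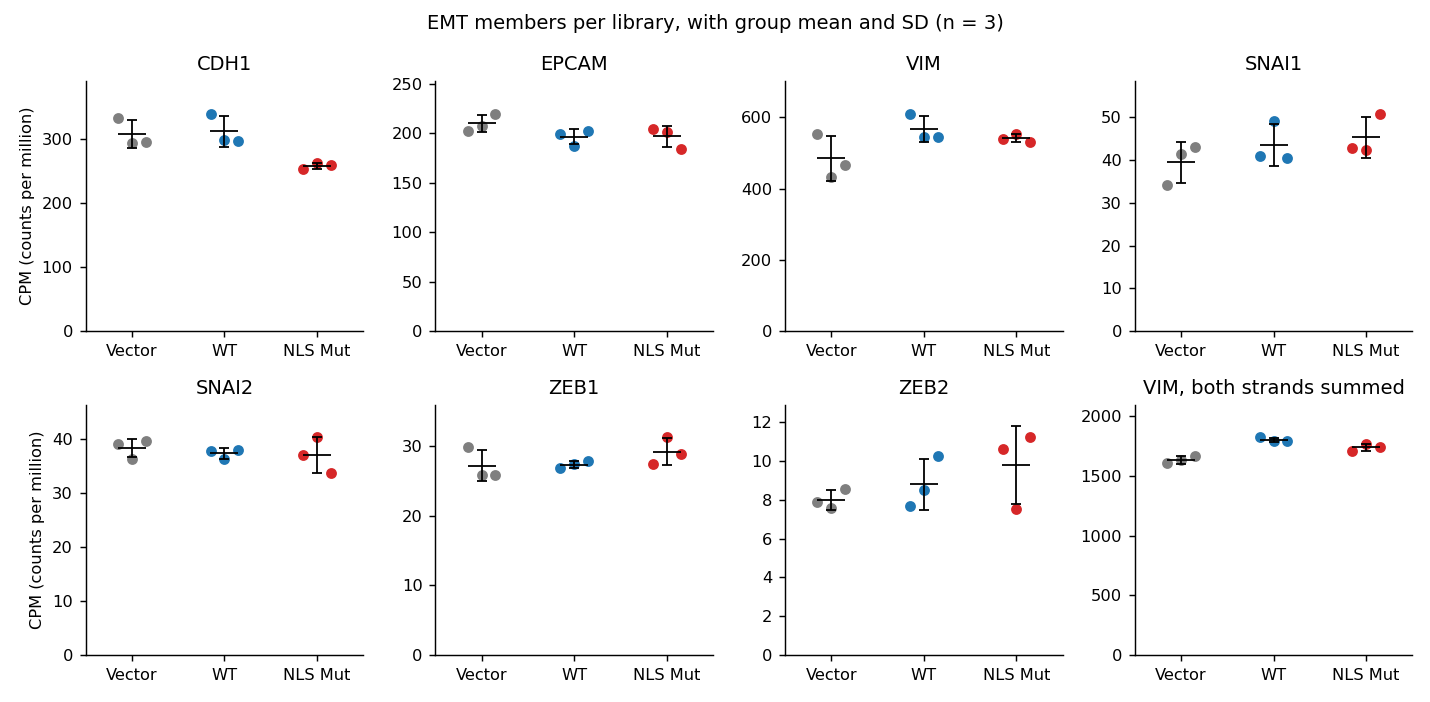
CPM of each tested member per library, by group, with the group mean and SD (n = 3); the last panel shows VIM on the sum of both strands. CDH1 in NLS Mut (253 to 261 CPM) lies below all Vector and WT libraries, and the groups overlap for EPCAM, SNAI1, SNAI2, ZEB1 and ZEB2 in every comparison but EPCAM in WT against Vector.

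EPCAM (chromosome 2, 47345158 to 47387601, plus strand) was not called in any comparison. It was at 203, 207 and 220 CPM in Vector, at 200, 188 and 202 in WT and at 204, 202 and 185 in NLS Mut. Its 3 WT libraries lay just below the 3 Vector libraries, at most 202 against at least 203 CPM. 13.1% of all tested genes had groups that did not overlap in that comparison, and the log2 fold change of EPCAM was small (-0.10, 95% interval -0.22 to 0.03, adjusted p = 0.57, edgeR). WT and NLS Mut differed by 0.00 (-0.13 to 0.12, adjusted p = 0.99, edgeR), and NLS Mut and Vector by -0.09 (-0.22 to 0.03, adjusted p = 0.57, edgeR). EPCAM and CDH1 were counted in the same libraries, so their ratio does not depend on the scaling. It was 0.610, 0.708 and 0.744 EPCAM reads per CDH1 read in Vector, 0.590, 0.629 and 0.682 in WT and 0.808, 0.772 and 0.714 in NLS Mut. The NLS Mut ratios lay above those of WT and overlapped those of Vector.

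VIM was at 554, 434 and 466 CPM in Vector, at 610, 546 and 546 in WT and at 540, 553 and 531 in NLS Mut. Vector replicate 1 lay within the range of the other groups, and the other 2 Vector libraries below it. VIM was not called in any comparison of the main fit. The log2 fold change was 0.23 in WT against Vector (95% interval 0.09 to 0.36, unadjusted p = 0.0016, adjusted p = 0.12, edgeR), 0.16 in NLS Mut against Vector (0.03 to 0.29, adjusted p = 0.29, edgeR) and 0.07 in WT against NLS Mut (-0.07 to 0.20, adjusted p = 0.76, edgeR). Without Vector replicate 1 both differences from Vector were called, at 0.33 (adjusted p = 3.5e-05, edgeR) and 0.26 (adjusted p = 0.0013, edgeR). Corrected for GC content and length, WT against Vector was also called (0.27, adjusted p = 0.015, edgeR), as it was without a filter on low counts (0.22, adjusted p = 0.014, edgeR) and with the replicate number as a block (0.23, adjusted p = 0.026, edgeR). With block and correction together both differences from Vector were called, at 0.28 (adjusted p = 0.0016, edgeR) and 0.21 (adjusted p = 0.015, edgeR). The libraries differed in GC as well: counts relative to the average of all libraries moved by -0.05 (log2) for each 10 points of GC content in Vector replicate 1, by 0.11 and 0.12 in replicates 2 and 3, and by -0.08 to 0.03 in the WT and NLS Mut libraries. The part of this in the VIM result was not tested beyond the correction.

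The part of the VIM reads that was counted differed in the same libraries. It was 30.3% of the sum of both strands in Vector replicate 1, 23.2% and 24.4% in replicates 2 and 3, and 26.7% to 29.5% in the WT and NLS Mut libraries. On the sum of both strands VIM was at 1604, 1632 and 1664 CPM in Vector, at 1823, 1790 and 1789 in WT and at 1705, 1770 and 1739 in NLS Mut. The 3 groups then did not overlap, Vector being lowest and WT highest. The share of all tested genes that separate on this sum was not counted. On the count without regard to strand it was 13.1% to 18.1% between 2 groups. The differences of VIM on the sum were smaller than on that count and not called. They were 0.14 in WT against Vector (95% interval 0.06 to 0.22, adjusted p = 0.11, edgeR), 0.09 in NLS Mut against Vector (0.01 to 0.17, adjusted p = 0.36, edgeR) and 0.05 in WT against NLS Mut (-0.03 to 0.13, adjusted p = 0.69, edgeR). VIM-AS1 was at 3.70 ± 0.994, 3.70 ± 1.02 and 2.84 ± 0.612 CPM (SD, n = 3) in Vector, WT and NLS Mut, without a call, and at 539, 521 and 517 CPM on the sum of both strands, which counts reads shared with VIM.

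**Figure D3:**
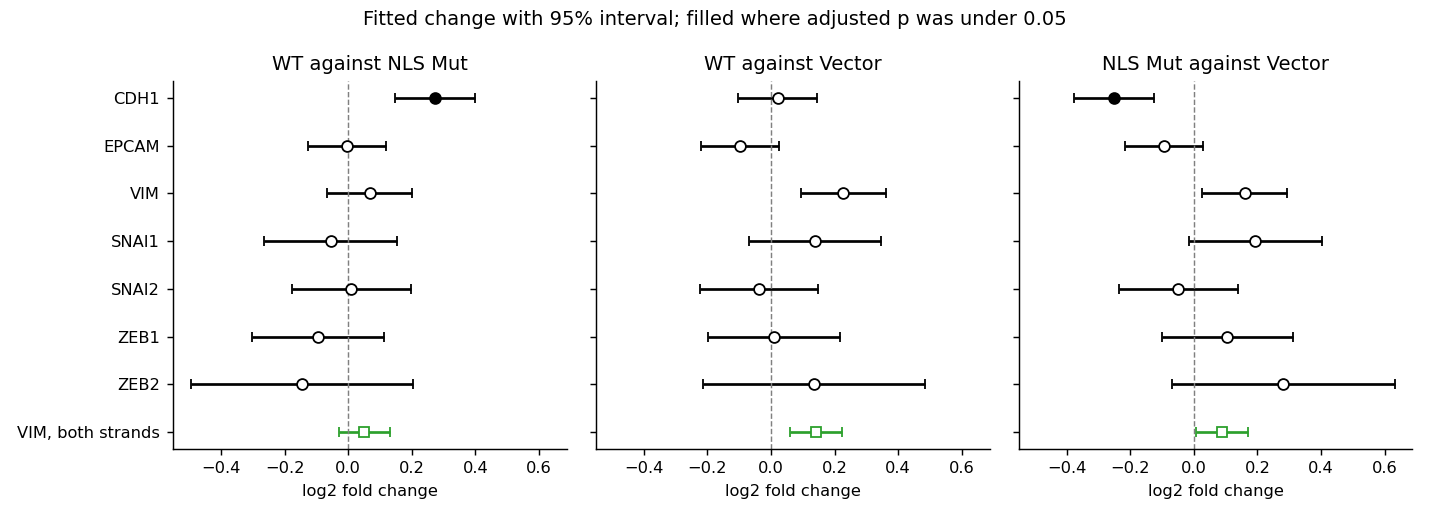
Log2 fold change of each tested member in the 3 comparisons, with its 95% interval from the edgeR fit, filled where the adjusted p was under 0.05; the last line is VIM on the sum of both strands. The filled points are those of CDH1, at 0.27 in WT against NLS Mut and at -0.25 in NLS Mut against Vector.

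VIM reads per CDH1 read, a ratio of 1 mesenchymal to 1 epithelial marker, were taken within each library. The ratio was 1.67, 1.48 and 1.58 in Vector, 1.80, 1.83 and 1.84 in WT and 2.14, 2.12 and 2.06 in NLS Mut. The means were 1.58 ± 0.0929, 1.82 ± 0.0217 and 2.10 ± 0.0419 (SD, n = 3), and the 3 groups did not overlap. On the sum of both strands the ratio was 4.42, 5.12 and 5.25 in Vector, 4.86, 5.51 and 5.52 in WT and 6.18, 6.33 and 6.21 in NLS Mut. NLS Mut remained above all other libraries, whereas Vector and WT now overlapped. The separation of WT from Vector thus depended on the counting, and that of NLS Mut did not. CDH1, the divisor, was by itself lower in NLS Mut than in all other libraries on both counts. The ratio of NLS Mut is therefore not separate from that result. The share of gene pairs whose ratios separate the groups was not counted. These ratios were formed after the fits were seen and were not tested.

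**Figure D4:**
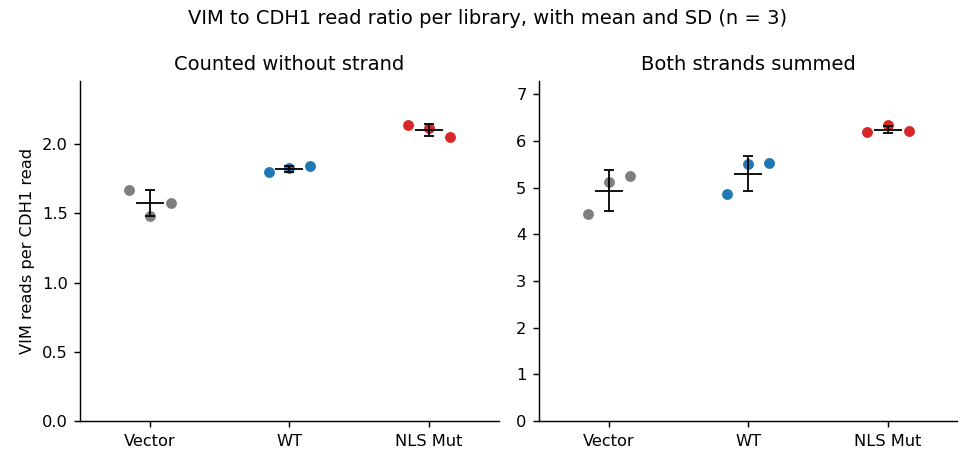
VIM reads per CDH1 read in each library, by group, with mean and SD (n = 3), for counts made without regard to strand (left) and for both strands summed (right). NLS Mut is highest in both panels (2.06 to 2.14 and 6.18 to 6.33), and Vector and WT overlap in the right panel.

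The SNAI and ZEB repressors were not called in any comparison, and their groups overlapped in each. SNAI1, a repressor of CDH1, was at 34.0, 41.3 and 43.1 CPM in Vector, at 40.9, 49.1 and 40.4 in WT and at 42.8, 42.3 and 50.8 in NLS Mut. Its log2 fold change was 0.19 in NLS Mut against Vector (95% interval -0.02 to 0.40, adjusted p = 0.46, edgeR), 0.14 in WT against Vector (-0.07 to 0.35) and -0.06 in WT against NLS Mut (-0.26 to 0.15). With a GC content of 58.2% it lay above the upper quartile of the tested genes (56.7%), and corrected for GC content and length it was called in NLS Mut against Vector (0.31, adjusted p = 0.041, edgeR).

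SNAI2 was at 39.1, 36.4 and 39.5 CPM in Vector, at 37.8, 36.2 and 37.9 in WT and at 37.0, 40.3 and 33.6 in NLS Mut, with differences of -0.05 to 0.01 on the log2 scale. ZEB1 was at 29.8, 25.9 and 25.9 CPM in Vector, at 26.8, 27.3 and 27.9 in WT and at 27.4, 31.2 and 28.9 in NLS Mut. The 95% interval of ZEB1 in NLS Mut against Vector ran from -0.10 to 0.31, which includes a change of the size seen in CDH1. ZEB2 was at 7.90, 7.56 and 8.59 CPM in Vector, at 7.69, 8.51 and 10.3 in WT and at 10.6, 7.53 and 11.2 in NLS Mut. Its highest and lowest libraries were both in NLS Mut, and its difference from Vector there was 0.28 with a wide interval (-0.07 to 0.63, adjusted p = 0.54, edgeR). ZEB1-AS1, which shares 366 exonic bases with ZEB1, was at 5.65, 5.59 and 5.15 CPM in Vector, WT and NLS Mut.

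ID2 was at 18.3, 18.8 and 19.1 CPM in Vector, at 23.3, 18.5 and 19.3 in WT and at 17.6, 17.6 and 18.8 in NLS Mut, and it was not called (WT against NLS Mut 0.18, 95% interval -0.06 to 0.42, adjusted p = 0.60, edgeR). WT replicate 1 stood above the other libraries, and the rest overlapped. TCF12 was at 87.6, 102 and 98.7 CPM in Vector, WT and NLS Mut (WT against Vector 0.22, 0.08 to 0.36, adjusted p = 0.16, edgeR). TCF3 was at 187, 179 and 190 CPM.

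The members were set beside 3 hand-written lists of 40 genes each, written with earlier results of these data known, so that their counts are descriptions. Of 40 epithelial genes (keratins, claudins, desmosome and tight junction genes and their regulators), all 40 tested, 30 had a positive log2 fold change in WT against NLS Mut, with a median of 0.12 against -0.01 for all genes, of which 48.9% were positive. In NLS Mut against Vector 7 of 40 were positive and the median was -0.15. In WT against Vector 18 of 40 were positive and the median was -0.02. Called were 2 epithelial genes in WT against NLS Mut (5% of the list, against 0.504% of all tested genes), 2 in WT against Vector (5% against 0.558%) and 3 in NLS Mut against Vector (7.5% against 0.793%). TJP3, a tight junction scaffold, was at 19.5 ± 1.27, 18.4 ± 2.12 and 11.9 ± 0.965 CPM in Vector, WT and NLS Mut (SD, n = 3), 0.63 higher in WT than in NLS Mut on the log2 scale (adjusted p = 0.013, edgeR) and 0.72 below Vector in NLS Mut (log2 fold change -0.72, adjusted p = 0.0032, edgeR). KRT19, a simple-epithelium keratin, was higher in WT than in NLS Mut (0.23, adjusted p = 0.044, edgeR), at 871 ± 30.9 against 740 ± 29.1 CPM. ELF3, an epithelial transcription factor, fell in NLS Mut against Vector (-0.36, adjusted p = 0.028, edgeR). The epithelial factor KLF4 fell against Vector with both WT (-0.28, adjusted p = 0.041, edgeR) and NLS Mut (-0.44, adjusted p = 3.6e-04, edgeR), and the tight junction gene CLDN1 fell with WT (-0.73, adjusted p = 0.020, edgeR). CLDN1 was also below Vector in NLS Mut, without a call (-0.58, adjusted p = 0.064, edgeR). WT and NLS Mut differed in it by -0.14 (adjusted p = 0.80, edgeR). These counts moved with single libraries. Without Vector replicate 1 the epithelial calls were 7 in WT against NLS Mut, 8 in WT against Vector and 15 in NLS Mut against Vector. In WT against NLS Mut they were 0 without WT replicate 1 or NLS Mut replicate 2 or 3, and 1 without WT replicate 3 or NLS Mut replicate 1. In WT against Vector they were 0 without Vector replicate 2 or WT replicate 1, and 1 without Vector replicate 3, WT replicate 3 or any NLS Mut library. In NLS Mut against Vector they were 1 without NLS Mut replicate 2 and 6 without WT replicate 1.

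The medians of the mesenchymal and epithelial lists lay on the same side of 0 in WT against NLS Mut. Of 35 tested of 40, 27 were positive there (median 0.11), 24 in WT against Vector (0.10) and 18 in NLS Mut against Vector (0.05). In WT against NLS Mut 5 were called, all higher in WT (14.3% of those tested, where 0.3% of all genes were called higher). Those with the largest changes were S100A4 (0.82, adjusted p = 3.5e-04), a calcium-binding protein of motile cells, the matrix genes COL1A2 (0.55, adjusted p = 1.4e-05) and FN1 (0.32, adjusted p = 0.0011), and the matrix-binding protein SPARC (0.30, adjusted p = 0.0030), all by edgeR. Against Vector, 5 mesenchymal genes were lower in NLS Mut (14.3%, where 0.499% of all genes were called lower), among them S100A4 (-0.66, adjusted p = 0.0044, edgeR), COL1A2 (-0.35, adjusted p = 0.0033, edgeR), COL6A1 (-0.30, adjusted p = 0.020, edgeR) and COL5A1 (-0.24, adjusted p = 0.026, edgeR). VIM, with 0.16 in that comparison, was not among them. In WT against Vector 2 were called (5.71%, against 0.558% of all genes). TGFBI, a secreted matrix protein induced by TGF-β, was higher (0.18, adjusted p = 0.032, edgeR) and CCN1 was lower (-0.33, adjusted p = 0.0075, edgeR). The genes CDH6, CDH13, POSTN, COL3A1 and THY1 had at most 14 reads in any library and were not tested. Without Vector replicate 1 the mesenchymal calls were 14, 13 and 15 in WT against NLS Mut, WT against Vector and NLS Mut against Vector. Against Vector, those in WT were 5 without WT replicate 2, 1 without WT replicate 1 or NLS Mut replicate 2 or 3 and 0 without Vector replicate 2 or 3 or WT replicate 3, and those in NLS Mut were 2 without Vector replicate 3 or NLS Mut replicate 1 or 3, 1 without Vector replicate 2 and 0 without NLS Mut replicate 2.

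Of 37 tested regulators of EMT (TGF-β and BMP signalling, E and ID proteins, chromatin and Hippo genes) none was called in WT against NLS Mut or NLS Mut against Vector by edgeR, where DESeq2 called 1 and 2, and 4 and 6 had an unadjusted p under 0.05 (10.8% and 16.2%, against 11.6% and 12.2% of all genes). In WT against Vector 2 were called, both higher in WT (5.41%, where 0.214% of all genes were called higher). They were the ligand TGFB2 (52.3 ± 1.96 against 65.6 ± 2.55 CPM in Vector and WT, 0.33, adjusted p = 0.043, edgeR) and WWTR1, which encodes the coactivator TAZ (109 ± 7.42 against 134 ± 4.26 CPM, 0.30, adjusted p = 0.032, edgeR). The rise of TGFB2 was not particular to WT. In NLS Mut it was at 64.6 ± 4.18 CPM (0.30 against Vector, adjusted p = 0.053, edgeR). WWTR1 was at 119 ± 7.67 CPM in NLS Mut (0.12 against Vector, adjusted p = 0.48, edgeR). Without Vector replicate 1, 4 regulators were called in WT against Vector, and none was without Vector replicate 2 or 3, WT replicate 1 or 3 or any NLS Mut library. Neither gene was called when only the 2 groups compared were fitted, on library size alone or on the sum of both strands. The medians of this list were 0.03, 0.07 and 0.02 in WT against NLS Mut, WT against Vector and NLS Mut against Vector.

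**Figure D5:**
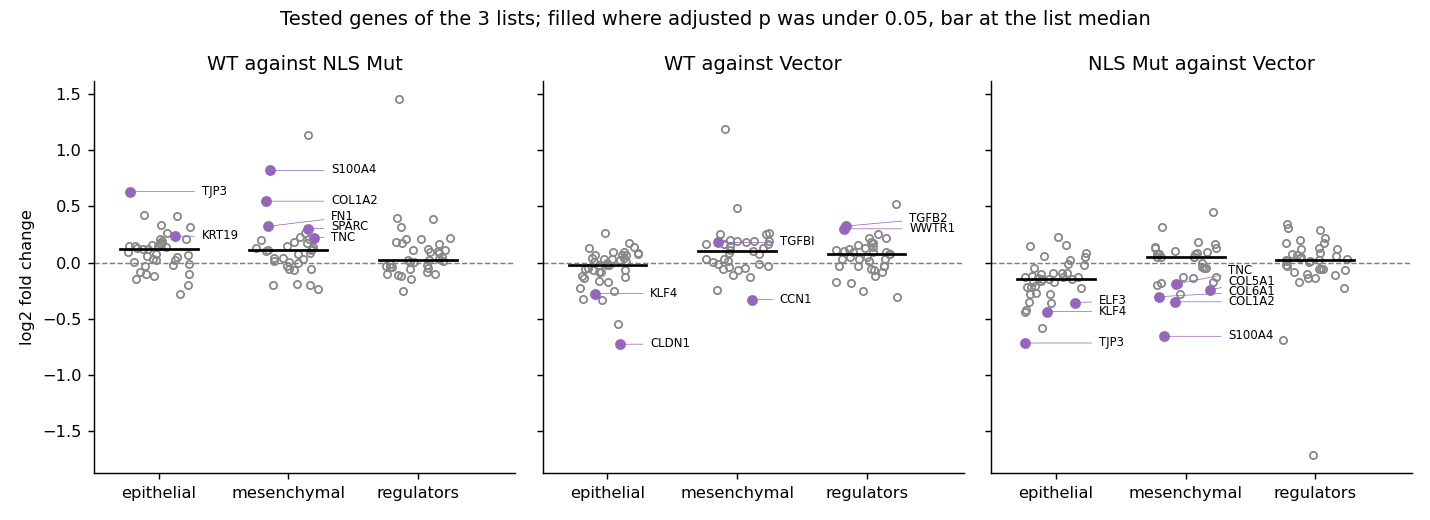
Log2 fold change of each tested gene of the epithelial (40), mesenchymal (35) and regulator (37) lists in the 3 comparisons; filled points had an adjusted p under 0.05 and bars mark list medians. In WT against NLS Mut the epithelial and mesenchymal medians both lie above 0 (0.12 and 0.11), and in NLS Mut against Vector the epithelial median lies at -0.15.

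The genes nearest to CDH1 in pattern over the 9 libraries, by the root-mean-square difference of standardized log2 CPM among the 10071 genes that averaged 10 CPM or more, were GALNT5 (0.225 SD), PLCG2 (0.227) and GOLPH3L (0.290). GALNT5, an enzyme of mucin-type O-glycosylation, was at 22.3 ± 2.39, 24.1 ± 3.05 and 17.96 ± 0.200 CPM in Vector, WT and NLS Mut (SD, n = 3). Those nearest to VIM, on the count without regard to strand, were MITF (0.156 SD), PLCE1 (0.239) and GCC2 (0.242). MITF, a transcription factor known from melanocytes, was at 53.6 ± 3.94, 59.8 ± 2.21 and 58.6 ± 1.24 CPM. These distances describe 9 libraries that share the groups and the differences in GC, and were not tested.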

How the data were processed

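RNA-Seq was done on 9 libraries of H1975 cells, 3 each of Vector, WT and NLS Mut, grouped by their labels. The deposited values are read counts for each gene, not normalized by the authors, made with STAR 2.7.9a on GRCh38.p14 per the labels, which also name DESeq2 1.36.0. The annotation is not given in the sources used here. The files hold counts without regard to strand and for each strand. The first was used, since the forward strand held about as many reads as the reverse. Summary lines that name no gene were left out. These held 27.6% to 30.7% of the reads of a library. GENCODE 29 (GRCh38) gave coordinates and exonic length for 58342 of 61544 genes.

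All 9 libraries were normalized by TMM, filtered by filterByExpr and fitted in 1 quasi-likelihood model with edgeR 4.0.16 (R 4.3.3). p-values were adjusted by Benjamini-Hochberg over 18653 genes. Intervals are at 95%. The median biological coefficient of variation was 11.2%, on 6 residual degrees of freedom. TPM divides counts by exonic length. DESeq2 1.42.0, other scalings and filters, only the 2 groups compared, a replicate block, GC and length offsets (loess, span 0.3) and leaving out each library were alternatives. The edgeR and DESeq2 fits were tested on simulated counts. The changes simulated were larger than that of CDH1, and no differences in GC between libraries were included. The members, lists and tests were chosen with earlier results of these data known. Named were all members, the called genes of each list (at most the 4 with the largest change per comparison), ID2, the E proteins, overlapping genes and the 3 genes nearest in pattern to CDH1 and VIM. The exact permutation test used scipy 1.17.1, and figures were drawn with matplotlib 3.10.9.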

Additional observations from a re-analysis of the deposited data

How the results depend on the processing

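CDH2 had too few reads for the test and was fitted only without a filter (WT against Vector -1.48, adjusted p = 0.77, edgeR). The effect of depth on the other members was not tested. Leaving out a library in turn, the number of called members ranged from 0 to 1 in WT against NLS Mut, 0 to 1 in WT against Vector and 0 to 2 in NLS Mut against Vector; the epithelial list from 0 to 7, 0 to 8 and 1 to 15; the mesenchymal list from 4 to 14, 0 to 13 and 0 to 15; and the regulators from 0 to 1, 0 to 4 and 0 to 2. The highest counts were those without Vector replicate 1. In WT against NLS Mut the epithelial list had 6 calls by DESeq2, 5 without a filter, 4 with 1 CPM in 3 libraries, 6 with 2 groups, 5 with the GC and length offsets; the mesenchymal list 9 by DESeq2, 12 with 2 groups and 12 with offsets; and the regulators 1 by DESeq2, with 2 groups and with offsets. In WT against Vector 1 member (VIM) was called without a filter and with offsets; the epithelial list had 0 with 2 groups; the mesenchymal list had 7 by DESeq2, 1 on library size alone, 5 without a filter, 4 at 1 CPM, 0 with 2 groups and 6 with offsets; and the regulators 0 on library size alone, with 2 groups and on the sum of both strands, and 1 with offsets. In NLS Mut against Vector 2 members were called with offsets; the epithelial list had 9 by DESeq2, 5 on library size alone and 8 without a filter; and the regulators 2 by DESeq2, 2 without a filter and 1 at 1 CPM.

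The replicate numbers showed little pairing of the libraries over all tested genes. Correlations of deviations from the group mean were -0.02 to 0.06 for same-numbered libraries of different groups and -0.05 to 0.02 for differently numbered ones. With the number as a replicate block, CDH1 kept its calls (0.27 and -0.25) and VIM was called in WT against Vector (0.23, adjusted p = 0.026, edgeR). In WT against NLS Mut the block gave 5 epithelial and 8 mesenchymal calls, in WT against Vector 1 member and 5 mesenchymal, and in NLS Mut against Vector 6 epithelial and 2 regulators. With the replicate block and offsets together, these were 6, 13 and 1 regulator, then 1 member (VIM, 0.28), 8 and 1 regulator, and 3 members in NLS Mut against Vector (CDH1, VIM at 0.21 and SNAI1 at 0.32).

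Values near 0 changed sign, none of them called. EPCAM in WT against NLS Mut became 0.0027 by DESeq2, 0.0030 with its size factors, 0.0026 at 1 CPM, 0.0025 with 2 groups and 0.0051 on both strands, and ranged from -0.0429 to 0.0373 without 1 library. CDH1 in WT against Vector became -0.0080 on library size alone, and ZEB1 there -0.0188 on library size alone, -0.0584 with offsets, -0.0598 with block and offsets and -0.0620 on both strands. Without 1 library, SNAI1 and SNAI2 in WT against NLS Mut ranged from -0.145 to 0.0378 and -0.0474 to 0.0826, CDH1 and ZEB1 in WT against Vector from -0.0438 to 0.0794 and -0.0271 to 0.0769, and SNAI2 in NLS Mut against Vector from -0.123 to 0.00678. Of the members' fold changes under the 10 alternatives that left out no single library, 193 kept their direction and call, 10 changed sign and 7 became called. Without 1 library these were 160, 16 and 2, and 11 lost their call. The causes were not tested.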
